A study of Mus musculus with 24 samples.

Results

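The 8 genes described here encode the klotho coreceptors (Kl and Klb), a pair of fibroblast growth factors (Fgf1 and Fgf21) and the FGF receptor tyrosine kinases (Fgfr1, Fgfr2, Fgfr3 and Fgfr4). They were chosen by name. Every probe of the array whose RefSeq transcript carries one of these symbols was collected, which gave 17 of 56605 probes, and the brightest probe of each gene over all arrays was used. All 8 genes had a probe, out of 45616 genes or unnamed transcripts measured. RNA from kidney, liver, lung and white adipose tissue (WAT) of C57BL/6J male mice was hybridised to 1-colour Agilent arrays. Each tissue was taken at 10 weeks (10W, young) or 90 weeks (90W, aged), with 3 mice in each of the 8 groups and 24 arrays in all. The labels name no genotype change or treatment in either age group. They do not say whether 1 mouse gave several tissues, so p-values measure the spread between these numbered samples, and the depot from which WAT was taken is not named.

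FGF receptors are membrane kinases that dimerise when an FGF binds together with heparan sulfate, and signal through the adaptor FRS2 to the ERK kinases. Endocrine FGFs bind heparan sulfate weakly and need a klotho protein beside the receptor. Alpha-klotho, the product of Kl, is made mainly by the renal tubule and serves the bone hormone FGF23, which lowers phosphate reabsorption and active vitamin D. Beta-klotho, the product of Klb, serves the hepatic hormone FGF21 and the ileal hormone FGF15 in fat and liver. FGF1 is a local, heparin-binding ligand that can bind all of the FGF receptors.

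A level is given as log2 of the processed signal minus the array's own 75th percentile, so that a difference of 1 is a doubling of signal. Between 58.6% and 71.1% of the probes were well above background on an array. Replicates of a group correlated at 0.930 to 0.995 over all genes, the lowest being young WAT. All 6 arrays of a tissue lay on 1 slide and each tissue had its own, so tissue and slide cannot be told apart, whereas both ages shared a slide.

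The markers of each labelled tissue were present, but 2 arrays stood apart. In WAT of young mouse 1 the epididymal genes Lcn5 and Crisp1 reached 8.76 and 7.58, whereas the other 5 WAT arrays ranged from -7.52 to -2.60 for Lcn5 and from -7.90 to -1.82 for Crisp1. The summed linear signal of 3 epididymis genes was 626 in that sample and 0.0152 to 0.304 in the other 5. The summed signal of 3 mesothelial genes was lowest there too, at 2.06 against 8.70 to 50.5. In the lung of aged mouse 1 the summed signal of 5 hepatocyte markers was 223, against 2.96 to 19.6 in the other 5 lungs, and 59.5% of probes were well above background, against 66.1% to 70.0%. Values of WAT and lung that rest on these samples are therefore also given without them, as settings added after seeing the data.

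The plot of all 8 genes by mouse shows their levels. In young mice the coreceptors and Fgf21 were not well above background on every array, whereas Fgf1 and Fgfr1 to Fgfr4 were. Over the 6 tissue pairs, 33 of 46 testable differences in level between young tissues passed an adjusted p of 0.05 in limma. That share has to be read against all genes tested in the pair, of which 74.1% passed for lung against liver, 68.2% for WAT against liver, 63.7% for kidney against lung, 56.3% for WAT against kidney, 56% for kidney against liver and 54.4% for WAT against lung. A gene entered a pair when 3 or more of the 6 arrays of either tissue read it well above background.

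**Figure D1:**
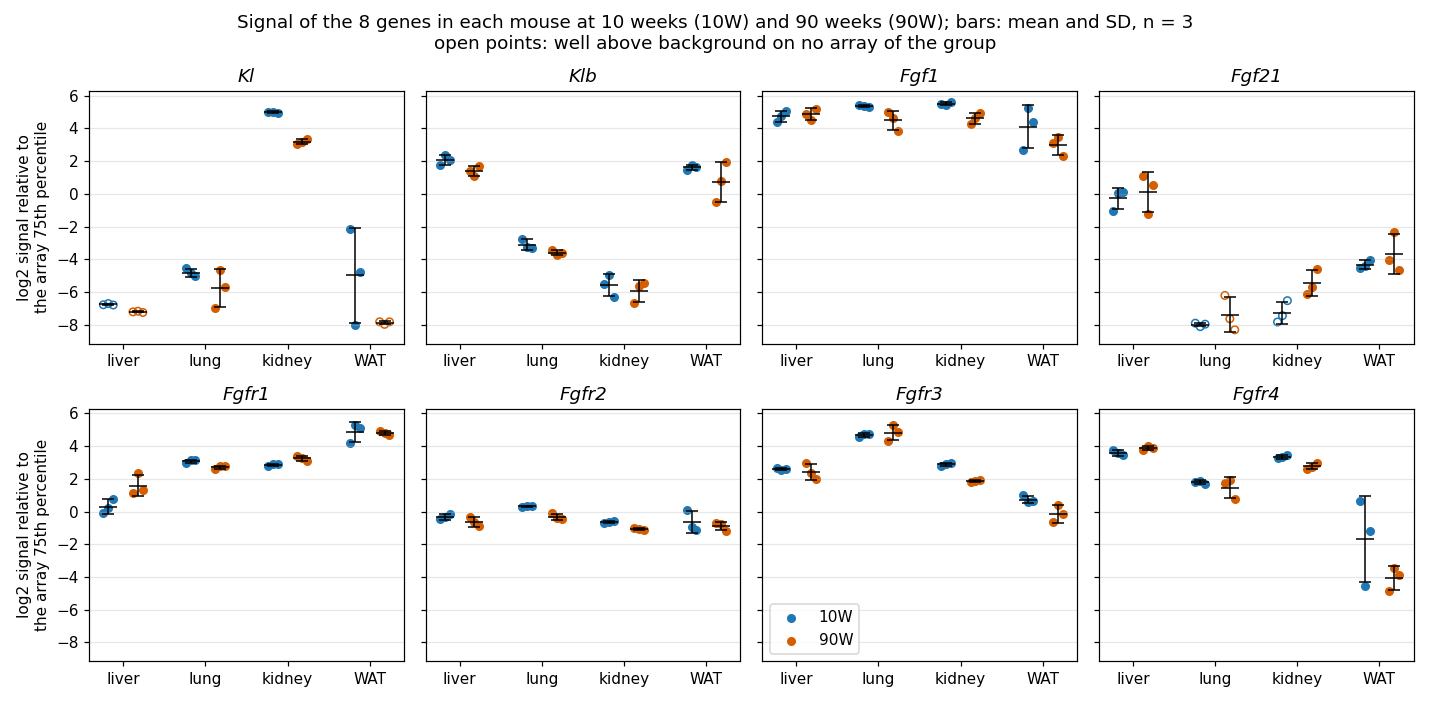
Signal of the 8 genes in each mouse (y axis, log2 relative to the array's 75th percentile) by tissue and age, with the mean and SD of 3 mice; open points mark groups in which no array was well above background. Kl stood near 5.00 in young kidney and near 3.18 in aged kidney, and its young WAT values were spread from -8.00 to -2.17.

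Fgf1 was read on every array. Young kidney gave 5.50, 5.41 and 5.58, young lung 5.45, 5.36 and 5.30, young liver 4.39, 4.76 and 5.08, and young WAT 2.67, 5.26 and 4.38. Kidney and lung did not differ beyond the shared spread (difference 0.13, adjusted p = 0.825), nor did liver and WAT (adjusted p = 0.230, and 0.852 without young WAT mouse 1). Lung and liver did not pass either (adjusted p = 0.222), although every lung value lay above every liver value. WAT was below lung by 1.27 on the log2 scale (2.41-fold lower, adjusted p = 0.0264) and below kidney 2.62-fold (adjusted p = 0.0151). Both calls were lost without young WAT mouse 1, with adjusted p = 0.209 and 0.119. These results hold for the brightest of 3 probes. On the other probes young liver was highest and young WAT lowest, at 1.47 and -0.34 on the brighter and -0.71 and -3.17 on the dimmer. Those differences were not tested.

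Fgf21, the starvation- and stress-induced hormone of the liver, was brightest in liver. The young livers gave -1.03, 0.08 and 0.11 and the young WAT samples -4.54, -4.42 and -4.03, which do not overlap. Liver was 16.6-fold above WAT (difference -4.05 for WAT minus liver, adjusted p = 2.08e-05, and -3.95 without young WAT mouse 1). No young kidney or lung array was well above background, so liver was at least 35.7-fold above kidney and at least 46.9-fold above lung. WAT was at least 2.16-fold above kidney and at least 2.83-fold above lung, with young mouse 1 the lowest of the WAT values. In these bounds the dim group takes, array by array, the dimmest signal that the scanner still scored as well above background.

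Kl was a kidney gene on these arrays. The young kidneys gave 5.02, 5.02 and 4.96, and the highest value in any other young tissue was -2.17. Kidney was at least 753-fold above liver, where no array was well above background, and 901-fold above lung (difference 9.82, SE 0.85, adjusted p = 1.08e-08). Young lung read -4.55, -4.86 and -5.02, low but well above background in all 3 mice. Young WAT read -2.17, -8.00 and -4.76, mouse 2 being not well above background and mouse 1 the highest, so that its values lay on both sides of those of lung. WAT minus lung was -0.17 (adjusted p = 0.882), and -1.57 without mouse 1, which passed (adjusted p = 0.0433). That call rests on the dim value of mouse 2, since mouse 3 lay within the range of lung. No firm order between these tissues can be read.

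Klb had the reverse distribution, with high signal in liver and WAT. The young livers gave 1.77, 2.36 and 2.05 and the young WAT samples 1.46, 1.75 and 1.67, ranges that narrowly miss each other. The 2 tissues did not differ beyond the shared spread (difference -0.43, SE 0.45, adjusted p = 0.412, and -0.35 without WAT mouse 1). Young lung was 26.5-fold below WAT, at -3.10 ± 0.32 (SD, n = 3), and WAT minus lung was 4.81 on the log2 scale without WAT mouse 1. Kidney was lowest, at -5.57 ± 0.68 (SD, n = 3), with 1 of 3 arrays well above background, and each kidney value lay below each lung value.

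Each receptor had its own order of tissues. Fgfr1, the receptor through which FGF21 acts on fat cells, was highest in young WAT (4.86 ± 0.59, SD, n = 3), followed by lung (3.07 ± 0.11) and kidney (2.86 ± 0.07). WAT exceeded lung by 1.79 on the log2 scale (adjusted p = 4.57e-05), or by 2.12 without WAT mouse 1. Lung and kidney did not differ beyond the shared spread (adjusted p = 0.553), although every lung value lay narrowly above every kidney value. The liver was lowest at 0.31 ± 0.43 and lay 5.88-fold below kidney (adjusted p = 4.44e-07).

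Fgfr2, which in epithelia carries the keratinocyte growth factor receptor isoform, varied least. Its young means ran from 0.33 ± 0.03 in lung through -0.31 ± 0.18 in liver to -0.65 ± 0.05 in kidney and -0.65 ± 0.67 in WAT (SD, n = 3). Lung exceeded liver 1.56-fold (adjusted p = 0.0195). The steps from liver to kidney (adjusted p = 0.244) and from kidney to WAT (adjusted p = 0.981) were within the shared spread, although every liver value lay above every kidney value. Young WAT mouse 1 had the highest of the WAT values, 0.11 against -0.94 and -1.13, and without it WAT was below liver by 0.72 on the log2 scale (difference -0.72, adjusted p = 0.00133).

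Fgfr3, a negative regulator of bone growth, was highest in young lung at 4.68 ± 0.12, then kidney at 2.88 ± 0.09, liver at 2.60 ± 0.07 and WAT at 0.73 ± 0.23 (SD, n = 3). Lung was 3.46-fold above kidney (adjusted p = 7.75e-06) and WAT minus liver was -1.87 (adjusted p = 3.97e-06), and still passed without WAT mouse 1 (adjusted p = 7.69e-06). Kidney and liver did not differ beyond the shared spread (adjusted p = 0.365), although every kidney value lay above every liver value.

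Fgfr4, the FGF receptor of hepatocytes through which FGF15 restrains bile acid synthesis, read 3.77, 3.58 and 3.43 in young liver and 3.26, 3.32 and 3.47 in young kidney. Those 2 tissues overlapped (adjusted p = 0.807). Lung followed at 1.80 ± 0.10 (SD, n = 3), below liver 3.47-fold (adjusted p = 0.0422). Every young lung value (1.83, 1.88 and 1.68) lay below every young kidney value, although that difference did not pass (adjusted p = 0.0855). The test shares the spread of Fgfr4 over the tissues, and its SD was 2.65 in young WAT, beside 0.11 in young kidney. WAT was lowest and by far the most variable, at 0.67, -4.55 and -1.17, and was 11.2-fold below lung (adjusted p = 0.000908). The highest of these values again belonged to mouse 1, and without it the WAT minus lung difference grew from -3.48 to -4.66.

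The kidney was the organ in which most of these genes changed with age. Of the 7 members tested, Kl, Fgf1, Fgfr2, Fgfr3 and Fgfr4 fell, Fgfr1 rose, and Klb did not pass. Kidney RNA changed widely, however. Over all 31485 genes tested 63.2% passed, 20.7% as higher and 42.5% as lower, and the median change was -0.23. Of the 7 members, 6 had groups that did not overlap, beside 70.7% of all genes, so neither share is a result about the members, and the median change of the 7 was -0.59. Each change is therefore also given relative to the median gene.

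Kl fell furthest. It was 5.02, 5.02 and 4.96 in young and 3.04, 3.16 and 3.36 in aged kidneys. All aged values lay below all young values by more than 1.5 on the log2 scale. The change was -1.82 (SE 0.10, 3.53-fold lower, adjusted p = 7.68e-05), which was -1.59 relative to the median gene. A lower signal in whole kidney cannot tell fewer Kl-expressing cells from less Kl RNA per cell.

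Fgfr3 fell from 2.78, 2.92 and 2.95 to 1.83, 1.90 and 1.91. The change was -1.01 (SE 0.08, 2.01-fold lower, adjusted p = 0.000265), or -0.77 relative to the median gene. The groups were far apart for their spread, and the gene's other probe changed by -1.08. Fgf1 fell from 5.50, 5.41 and 5.58 to 4.28, 4.65 and 4.92, a change of -0.88 (SE 0.17, adjusted p = 0.00477) and of -0.65 relative to the median. All 3 of its probes were lower in aged kidney, by -1.03 to -0.84.

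Fgfr4 and Fgfr2 fell less. Fgfr4 was 3.26, 3.32 and 3.47 in young and 2.59, 2.73 and 2.97 in aged kidneys (change -0.59, SE 0.12, adjusted p = 0.00688). Fgfr2 was -0.69, -0.65 and -0.59 in young and -1.03, -1.06 and -1.12 in aged kidneys (change -0.42, SE 0.07, adjusted p = 0.00356). Neither pair of groups overlapped, but relative to the median gene the changes were only -0.35 and -0.19.

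Fgfr1 went the other way. It rose from 2.79, 2.88 and 2.92 to 3.40, 3.27 and 3.10, a change of 0.39 (SE 0.10, 1.31-fold, adjusted p = 0.0162), and all 4 of its probes were higher, by 0.28 to 0.39. Relative to the median gene this was 0.63. Klb was dim, well above background on 3 of 6 arrays, and its change of -0.35 had a 95% interval from -1.44 to 0.74. Fgf21 was above background on none of the young and 2 of the aged kidney arrays and was not tested. It read -7.83, -7.44 and -6.52 in young and -6.10, -5.68 and -4.59 in aged kidneys.

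**Figure D2:**
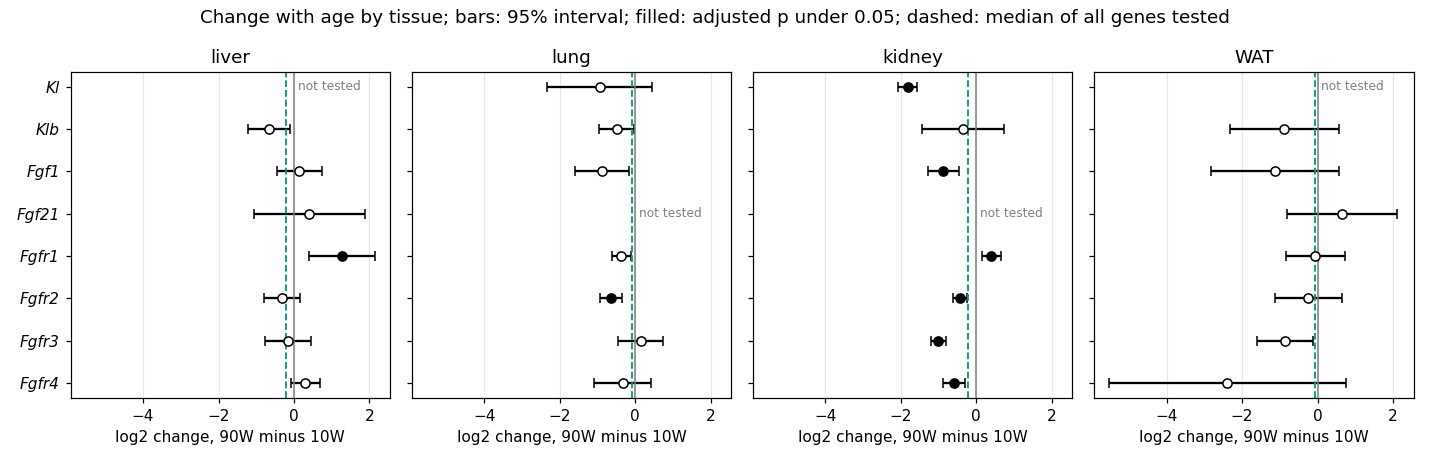
Change with age (x axis, log2 signal at 90W minus 10W) of each gene in each tissue with its 95% interval from limma, filled where the adjusted p was under 0.05; the dashed line marks the median of all genes tested in that tissue. In kidney Kl lay at -1.82 with an interval from -2.07 to -1.57, and in WAT every interval was wide.

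Of the genes that fell in kidney, Kl, Fgfr2, Fgfr3 and Fgfr4 have an upstream sequence in the RefSeq promoter table (GRCm38.p6). The 250 bases before their starts are printed. Capitals mark the GC box, the core GGGCGG or its reverse complement CCGCCC, to which the factor SP1 can bind. Kl lies on the plus strand at chr5:150952357-150952606, with GC boxes starting at -43 and -17 from the start site.
Kl: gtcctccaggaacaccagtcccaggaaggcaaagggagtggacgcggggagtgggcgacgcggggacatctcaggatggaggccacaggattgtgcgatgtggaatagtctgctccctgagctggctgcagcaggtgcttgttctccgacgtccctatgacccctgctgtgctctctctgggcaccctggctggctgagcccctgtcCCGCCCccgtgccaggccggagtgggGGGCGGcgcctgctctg
Fgfr3 has 2 starts on the plus strand, with upstream windows at chr5:33721474-33721723 and chr5:33722056-33722305, holding 3 and 2 GC boxes.
Fgfr3, first start: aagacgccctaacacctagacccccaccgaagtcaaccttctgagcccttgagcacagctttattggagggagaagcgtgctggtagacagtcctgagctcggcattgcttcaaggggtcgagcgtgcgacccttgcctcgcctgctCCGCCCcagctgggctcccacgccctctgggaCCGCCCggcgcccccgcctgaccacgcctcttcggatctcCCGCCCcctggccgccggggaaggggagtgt
Fgfr3, second start: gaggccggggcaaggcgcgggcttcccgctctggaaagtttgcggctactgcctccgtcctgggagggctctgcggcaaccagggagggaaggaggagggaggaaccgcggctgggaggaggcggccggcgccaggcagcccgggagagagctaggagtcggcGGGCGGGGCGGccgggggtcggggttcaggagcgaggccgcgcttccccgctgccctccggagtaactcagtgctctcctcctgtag
Fgfr4 lies on the plus strand at chr13:55152568-55152817 and has GC boxes at -62 and -46.
Fgfr4: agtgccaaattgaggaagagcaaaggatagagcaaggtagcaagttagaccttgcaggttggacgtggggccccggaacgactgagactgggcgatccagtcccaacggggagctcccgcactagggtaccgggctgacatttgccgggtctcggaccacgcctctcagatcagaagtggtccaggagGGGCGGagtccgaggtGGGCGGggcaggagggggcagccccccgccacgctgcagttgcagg
Fgfr2 lies on the minus strand at chr7:130266809-130267058 and has none.
Fgfr2: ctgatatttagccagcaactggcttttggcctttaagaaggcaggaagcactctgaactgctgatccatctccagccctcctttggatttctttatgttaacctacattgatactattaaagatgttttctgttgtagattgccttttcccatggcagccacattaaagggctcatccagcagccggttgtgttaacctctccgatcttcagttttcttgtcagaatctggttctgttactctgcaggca
Of all 32851 promoters of the table, 32.7% hold a GC box in the same 250 bases. Fgf21, which was not tested in kidney, and Klb, which did not pass there, have windows with 3 and 0 GC boxes and 59.6% and 48.0% G and C. The G and C content was 66.8% for Kl, 66.8% and 72.8% for the Fgfr3 starts, 64.0% for Fgfr4 and 44.0% for Fgfr2, beside a median of 52.4%. No TATA box (TATAAA or its reverse complement), which 12.4% of promoters hold, was found in any of the 5 printed windows, whereas the Fgf21 window holds a TATA box. Such letter matches describe the windows and show no binding.

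Genes of renal phosphate and vitamin D handling, the process that alpha-klotho and FGF23 are known to control, were counted beside them. Of 15 such genes tested in kidney, 10 fell, 1 rose and 4 did not pass, with a median of -0.74 beside -0.23 for all genes, of which 42.5% fell and 20.7% rose. With spike-in scaling 6 fell and 3 rose. Calb1, the calcium-binding protein of the distal tubule, fell most, from 6.16, 6.15 and 5.95 to 3.22, 3.64 and 3.67 (change -2.58, SE 0.15, adjusted p = 8.13e-05). The sodium-phosphate cotransporters of the proximal brush border fell too, Slc34a3 by 1.92 and Slc34a1 by 1.53 on the log2 scale, as did the vitamin D receptor Vdr by 1.43. Cyp27b1, the enzyme that makes active vitamin D, was the gene that rose, from -1.69, -2.11 and -0.39 to 0.25, 0.99 and 0.66 (change 2.03, SE 0.46, adjusted p = 0.00917). Cyp24a1, which degrades it, changed by -0.59 (adjusted p = 0.142). Slc34a1, Slc34a3, Vdr and Cyp24a1 were picked after their values were seen.

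**Figure D3:**
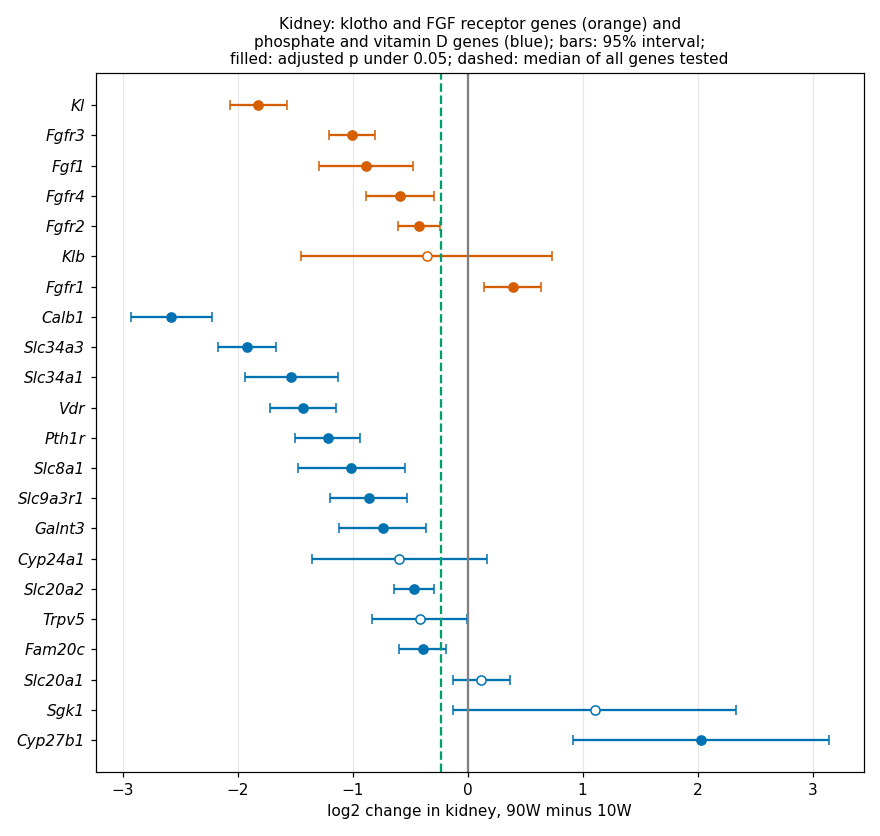
Change in kidney (x axis, log2 signal at 90W minus 10W) of the klotho and FGF receptor genes (orange) and of 15 phosphate and vitamin D genes (blue) with 95% intervals, filled where the adjusted p was under 0.05. Kl at -1.82 lay between Slc34a3 at -1.92 and Slc34a1 at -1.53, and Cyp27b1 at 2.03 was the phosphate and vitamin D gene that rose.

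Markers of kidney cell types changed too, mostly lower for the tubule lists and higher for podocytes, leukocytes and fibroblasts. In aged kidney 5 of 5 distal convoluted and connecting tubule markers fell (median -1.63), and their summed signal went from 79.1 to 91.0 in young to 12.2 to 17.0 in aged mice; Calb1 and Slc8a1 are on both lists. All 5 proximal tubule markers fell (median -1.22, sums from 708 to 759 down to 239 to 356), as did 2 of 3 markers of the thick ascending limb and 3 of 4 of the collecting duct. All 7 leukocyte markers rose (median 3.67, sums from 4.12 to 4.46 up to 32.5 to 54.0) and all 5 fibroblast markers rose (median 3.14, sums from 10.2 to 11.8 up to 44.1 to 59.7). Of 3 podocyte markers 2 rose (median 0.32, sums from 14.6 to 17.3 up to 20.2 to 31.3), and 3 of 3 rose with spike-in scaling. Of 5 adipocyte markers 3 rose and 1 fell (sums from 0.564 to 1.21 in young and from 0.841 to 3.22 in aged kidneys). With spike-in scaling 3 of 5 distal, 4 of 5 proximal, 1 of 3 thick limb and 1 of 4 collecting duct markers fell, and all leukocyte and fibroblast markers still rose. Their part in the changes of the 8 genes was not tested.

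Other FGF ligands in kidney split in direction. Of 12 tested among 20 listed, 5 rose and 3 fell, with a median of 0.08. Fgf2, the heparin-binding ligand of mesenchyme, was well above background in no young and all aged kidneys and was at least 2.08-fold higher. It passed the filter through its aged arrays alone. Its adjusted p of 0.000191 belongs to the measured difference of 2.93, not to that bound. Fgf9, the epithelial ligand known from kidney development, fell most, from 1.35 ± 0.10 to 0.17 ± 0.20 (SD, n = 3, adjusted p = 0.00058). Fgf23, known as a bone hormone, read 3.74 ± 0.35 in young kidney (SD, n = 3) and did not pass (change 0.10, SE 0.20, adjusted p = 0.670), whereas Fgf15 fell by 0.66 on the log2 scale (adjusted p = 0.0200).

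Of 16 coreceptors, proteoglycans and klotho-cleaving proteases 7 rose and 5 fell, beside 20.7% and 42.5% of all genes. Glypican Gpc6 had the largest rise (2.19, SE 0.27) and Lctl, also called gamma-klotho, the largest fall (-1.14, SE 0.09, adjusted p = 0.000279). The decoy receptor Fgfrl1 fell by 0.32 on the log2 scale (adjusted p = 0.0367). Of 14 adaptors and ERK cascade genes 4 rose and 6 fell, led by the ubiquitin ligase Cbl at 0.62 and the adaptor Frs3 at -0.65. Of 15 feedback inhibitors and ERK targets 5 rose and 1 fell, led by Spry1 at 0.96 and Etv1 at -0.70. With spike-in scaling the counts were 5 higher and 1 lower for the ligands, 10 and 1 for the coreceptors, 4 and 0 for the adaptors and 7 and 0 for the feedback genes. Fgf15 (adjusted p = 0.348), Frs3 (0.251) and Etv1 (0.183) then no longer passed, and Fgfrl1 turned to 0.07 (0.763).

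The kidney calls depended on the scale. With arrays scaled to spike-in spots, the median gene moved from -0.23 to 0.15, the called genes went from 6510 higher and 13374 lower to 9372 higher and 4492 lower, and Fgfr2 (change -0.04, adjusted p = 0.859) and Fgfr4 (change -0.20, adjusted p = 0.239) no longer passed, whereas Kl, Fgf1 and Fgfr3 still fell. In a fit over all 24 arrays Fgfr3 alone of the 8 passed in kidney (adjusted p = 0.0958 for Kl and 0.292 for Fgfr1). That fit shares each gene's spread over the tissues. For Kl the SD was 2.92 in young WAT, beside 0.03 and 0.16 in young and aged kidney. Within kidney, Fgfr1 also missed without young mouse 1 (adjusted p = 0.0507) or aged mouse 2 (adjusted p = 0.0545).

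In liver, Fgfr1 rose with age and no member fell by the test. It was -0.09, 0.23 and 0.77 in young and 1.11, 2.35 and 1.30 in aged livers, without overlap. The change was 1.28 (SE 0.37, 2.43-fold, adjusted p = 0.0436), and its 3 probes above background on 3 or more arrays were all higher in aged liver, by 1.11 to 1.28. That is 1 of 7 members tested as higher, beside 27.4% of the 27870 genes tested in liver, 10.6% as higher and 16.8% as lower.

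Klb was lower in each aged liver, at 1.39, 1.07 and 1.72 against 1.77, 2.36 and 2.05, but did not pass (change -0.67, 95% interval from -1.22 to -0.11, adjusted p = 0.0728). It was 1 of 3 members whose groups did not overlap, beside 49.8% of all genes. Its dimmer probe changed by -1.18, and with the mean of the gene's probes Klb passed (change -0.92, adjusted p = 0.0339). Fgfr4, the partner of beta-klotho in hepatocytes, was slightly higher in aged liver (change 0.30, SE 0.16, adjusted p = 0.204).

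Fgf21 varied between livers of both ages, from -1.03 to 0.11 in young and from -1.24 to 1.09 in aged mice. Its change of 0.41 had a 95% interval from -1.05 to 1.87, so a doubling in either direction lies within it. Fgf1 changed by 0.14 (adjusted p = 0.702) on the brightest probe and by -0.34 and -0.47 on its other probes. Fgfr2 and Fgfr3 changed by -0.31 and -0.16, within their spread, although the dimmer Fgfr2 probe changed by -1.12.

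Liver genes around these members changed in places. Of 14 bile acid synthesis genes and FGF21 regulators 3 fell, 0 rose and 11 did not pass (median -0.36 beside -0.20 for all genes). Cyp7b1, the oxysterol hydroxylase, fell most (change -1.47, adjusted p = 0.0492), and Cyp8b1, chosen after its values were seen, changed by -3.28 without passing (adjusted p = 0.0524). The ileal hormone gene Fgf15 was dim in liver and fell 2.15-fold (adjusted p = 0.0231), and Fgf11, an intracellular FGF homologue, rose (change 1.77, adjusted p = 0.0229), among 1 higher and 2 lower of 11 ligands. Fgf23 changed by -0.39 (adjusted p = 0.332).

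Among 15 liver coreceptors and proteoglycans 5 rose, with the largest change in Gpc6, which was well above background in 1 of 3 young and all aged livers, and 1 fell, Lctl at -0.69, while Fgfrl1 changed by -0.44 (adjusted p = 0.118). Of 14 adaptors Cbl rose (1.57) and Frs3 fell (-1.15), and of 13 feedback genes 3 rose, led by Etv1 at 1.15. Of 7 leukocyte markers 5 rose (sums from 14.4 to 16.8 up to 59.8 to 76.1), and of 5 fibroblast markers 4 rose (sums from 53.0 to 68.6 up to 131 to 152), whereas 1 of 5 hepatocyte markers fell (sums from 3662 to 4141 down to 2439 to 2832). Their part in the rise of Fgfr1 was not tested.

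The rise of Fgfr1 in liver was near the threshold. It no longer passed without young mouse 1 (adjusted p = 0.127), young mouse 2 (0.121), aged mouse 2 (0.0685) or aged mouse 4 (0.0592), although the change stayed between 0.90 and 1.66 under all 17 alternatives tried. With spike-in scaling the liver calls over all genes turned from 2947 higher and 4685 lower to 2406 higher and 1108 lower, and Fgf15, Lctl, Frs3 and Etv1 no longer passed (adjusted p = 0.0600, 0.313, 0.0508 and 0.0551).

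In lung, Fgfr2 fell with age. It was 0.30, 0.33 and 0.36 in young and -0.09, -0.39 and -0.45 in aged lungs, without overlap. The change was -0.64 (SE 0.12, 1.56-fold lower, adjusted p = 0.0402), and the gene's other probe changed by -0.80. It was the 1 member of 7 tested that passed, beside 5.57% of the 30312 genes tested in lung, 2.86% as lower and 2.7% as higher.

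Of the 7 members, 4 had groups that did not overlap, beside 35.8% of all genes, and each of these was lower in aged lung. Fgf1 went from 5.45, 5.36 and 5.30 to 4.98, 4.65 and 3.83 (change -0.89, SE 0.29, adjusted p = 0.127), and all 3 of its probes were lower. Fgfr1 changed by -0.37 (SE 0.11, adjusted p = 0.0985) and Klb by -0.49 (SE 0.19, adjusted p = 0.162). None of these 3 passed. Without aged mouse 1, Fgfr2 still passed (change -0.75, adjusted p = 0.0271), and Fgf1 (-1.13), Fgfr1 (-0.30) and Klb (-0.58) still did not.

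Kl in lung was low and variable with age, at -6.95, -4.63 and -5.68 in aged mice, 2 of 3 of them above background (change -0.94, adjusted p = 0.328). Fgfr3, brightest in this tissue, changed by 0.15 (95% interval from -0.44 to 0.75), and Fgfr4 by -0.33 (adjusted p = 0.520), its aged values being 1.75, 1.90 and 0.74. Fgf21 was above background on no lung array. Without aged mouse 1 the changes of Kl, Fgfr3 and Fgfr4 were -0.34, 0.40 and -0.48, and none passed.

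Fgf10, the mesenchymal ligand of epithelial FGFR2, was the 1 of 13 other ligands to fall in lung (from 0.44 ± 0.06 to -0.34 ± 0.29, SD, n = 3, with an adjusted p just under 0.05). Of 16 coreceptors and proteoglycans 4 fell and 0 rose, the largest change being that of Lctl (2.84-fold lower, adjusted p = 0.0485), while Fgfrl1 changed by -0.45 (adjusted p = 0.117). Fgf23 and Fgf15 changed by 0.14 and -0.39 and did not pass. Gab1, a docking adaptor, fell by 0.59 on the log2 scale as the 1 of 14 in its list, and the phosphatase Dusp4 by 0.45 as the 1 of 15 feedback genes. Without aged mouse 1, Gab1 still passed (adjusted p = 0.0369), and Fgf10 (0.0870), Lctl (0.0899) and Dusp4 (0.0727) did not.

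Of 5 adipocyte markers 3 fell in aged lung (median -3.46, sums from 22.2 to 34.2 down to 5.78 to 10.6), and all 4 heart muscle markers had lower means (sums from 71.6 to 205 in young and from 11.8 to 108 in aged mice, none passing). All 5 fibroblast markers also had lower means (median -1.93, none passing), and their sums did not overlap, at 71.6 to 95.3 in young and 33.7 to 48.2 in aged lungs. None of 5 lung epithelial markers passed. Of 7 leukocyte markers 2 rose (sums from 110 to 145 in young and from 106 to 185 in aged lungs). Without aged mouse 1, 0 adipocyte, 1 fibroblast and 1 of 5 lung epithelial markers passed as lower, and 2 leukocyte markers still rose. The part of these cells in the lung values of Klb, Fgf1, Fgfr2 and Fgf10 was not tested. The Fgfr2 call was lost without any 1 of the young mice (adjusted p = 0.128 to 0.151) or without aged mouse 2 (0.0697) or 3 (0.0791), and in 6 other alternatives, while its change stayed between -0.75 and -0.57.

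In WAT no member passed, and the spread between mice was large. In simulated WAT data with 200 changed genes the test called 17.5% of them, and 0 of those that doubled or halved. Of the 7 members tested limma called 0, beside 2.56% of all 30042 genes, 1.99% as higher and 0.566% as lower. At an unadjusted p under 0.05, 1 of the 7 passed, Fgfr3. The fit over all 24 arrays called Fgfr3 (adjusted p = 0.0240) and Fgfr4 (adjusted p = 0.0348) as lower. In that fit 19.8% of all genes in WAT were called, 3068 as higher and 2873 as lower. Fgfr3 was 0.99, 0.57 and 0.63 in young and -0.66, 0.41 and -0.17 in aged mice, the 1 of 7 without overlap beside 28.7% of all genes (change -0.87, 95% interval from -1.61 to -0.12, adjusted p = 0.205, and -0.74 with adjusted p = 0.293 without young mouse 1).

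Fgfr4 had the largest difference of means, with 0.67, -4.55 and -1.17 in young and -4.88, -3.46 and -3.88 in aged WAT, which overlap. The change was -2.39 (SE 1.29, adjusted p = 0.367), and -1.21 (adjusted p = 0.566) without young mouse 1. Kl was above background in young mice 1 and 3 and in no aged mouse and was not tested. Its aged values were -7.82, -7.97 and -7.82, near that of young mouse 2 at -8.00.

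Fgf1 showed the opposite dependence on young mouse 1. Its values were 2.67, 5.26 and 4.38 in young and 3.12, 3.50 and 2.29 in aged mice, so young mouse 1 lay within the aged range and the other young mice above it. The change was -1.13 (adjusted p = 0.420) with that mouse and -1.85 (adjusted p = 0.120) without it. All 3 probes of the gene had lower aged means.

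**Figure D4:**
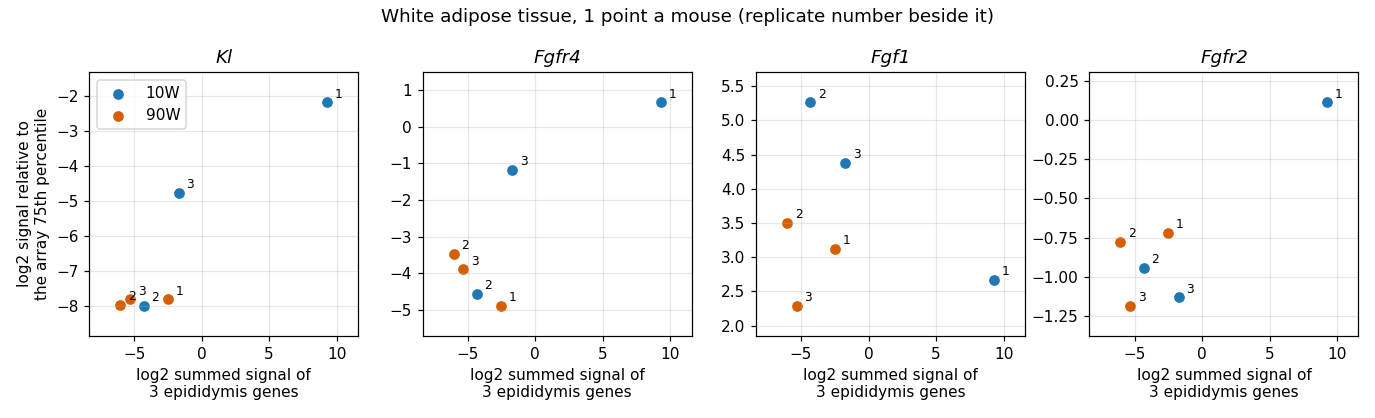
Kl, Fgfr4, Fgf1 and Fgfr2 in each WAT sample (y axis, log2 relative to the array's 75th percentile) against the log2 summed signal of 3 epididymis genes (x axis), 1 point a mouse with its number. Young mouse 1, whose sum was 626, had the highest Kl (-2.17), Fgfr4 (0.67) and Fgfr2 (0.11).

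The FGF21 pathway of fat gave no call among its own members. Klb was 1.46, 1.75 and 1.67 in young and -0.50, 0.77 and 1.95 in aged WAT, overlapping through 1 aged mouse (change -0.89, adjusted p = 0.455, and -0.97 without young mouse 1). Fgfr1 changed by -0.05 (95% interval from -0.83 to 0.72) and Fgf21 by 0.64 (95% interval from -0.82 to 2.10), or by -0.39 and 0.54 without young mouse 1. Fgfr2 changed by -0.24 (adjusted p = 0.755), or by 0.14 without that mouse. Of 10 fat response genes 1 passed. Ucp1, the uncoupling protein of thermogenic fat, was above background in no young and all aged mice. It read -6.76, -7.84 and -6.68 in young and -0.34, -0.62 and -1.43 in aged WAT, which is at least 28.4-fold higher. Ucp1 passed the filter through its aged arrays alone. The adjusted p of 0.00405 (0.0139 without young mouse 1) belongs to the measured difference of 6.29, not to that bound.

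Of 13 other ligands in WAT 1 fell, Fgf11 (change -1.75, and -1.94 without young mouse 1). No gene of the 15 coreceptors, 14 adaptors or 14 feedback genes tested passed. Fgf23, Fgf15, Lctl and Fgfrl1 changed by -0.31, 0.11, -0.43 and -0.69, within their spread, and none passed without young mouse 1, where Fgf15 turned to -0.029. Of 7 leukocyte markers 4 rose (sums from 14.2 to 44.6 up to 143 to 337), or 3 of 7 without young mouse 1, and of 5 adipocyte markers 0 passed.

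The change with age was compared between tissues in 1 fit over all 24 arrays. Of 38 testable differences over the 6 tissue pairs 3 passed, beside 21.1% of all genes for WAT against kidney, 8.01% for kidney against liver and 2.61% for WAT against lung, pairs in which no member passed. The change of Fgfr1 differed between lung and liver by -1.65 (SE 0.41, adjusted p = 0.0121, with 14% of all genes called), since it was -0.37 in lung and 1.28 in liver. It differed between WAT and liver by -1.33 (adjusted p = 0.0338, with 15.9% of all genes called). The change of Fgfr3 differed between kidney and lung by -1.16 (SE 0.37, adjusted p = 0.0324, with 19.9% of all genes called), being -1.01 in kidney and 0.15 in lung. Without aged lung mouse 1 the differences with lung were -1.58 for Fgfr1 (adjusted p = 0.0246) and -1.41 for Fgfr3 (adjusted p = 0.0108).

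The fall of Kl in kidney was not shown to differ from its change in lung (difference -0.88, SE 1.21, adjusted p = 0.666). That SE takes in the spread of Kl in WAT as well. For Fgf1 the difference between kidney and lung was 0.01 (SE 0.65), which does not show that the changes were alike. Without young WAT mouse 1 there were 4 calls, the added one being Fgf1 in WAT against liver (difference -1.99, adjusted p = 0.00908), and Fgfr1 there was -1.67 (adjusted p = 0.00532).

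The genes whose signal ran most like each member over the 24 arrays were ranked by Pearson correlation. Among 19053 named genes, Kl was followed most closely by Cdkl1 (Pearson r = 0.983), Sectm1b and Pdzd3, and Klb by Amy1 (r = 0.970), Thrsp and 1190005I06Rik. Fgf1 had the weakest likeness, led by Gcnt2 (r = 0.864), Cnn3 and AI661453, and Fgf21 was followed by Olfr812 (r = 0.950), Sec16b and Vmn1r48. For the receptors the leading genes were Phgdh for Fgfr1 (r = 0.973, then Gm6756 and Podn), Mesp2 for Fgfr2 (r = 0.920, then Fam189a2 and Deup1), Sec14l3 for Fgfr3 (r = 0.954, then Itga8 and Gm20611) and Grb7 for Fgfr4 (r = 0.986, then Cblc and Igsf5). The arrays fall into 4 tissues, so these values describe a shared tissue pattern over few independent groups. Signals near background entered as well. Fgf21 was well above background on 0 lung and 2 kidney arrays, and Kl on 0 liver and 2 WAT arrays. How far such signals shape these rankings was not tested.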

How the data were processed

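RNA of 24 tissue samples was labelled with Cy3 and hybridised to 1-colour Agilent arrays. The deposited values are the scanner's background-corrected spot intensity (Agilent Feature Extraction 11.0.1.1, per the labels and file headers). The headers name a mouse design on mm9, whereas the study's methods name a human kit. Here log2 intensity minus the 75th percentile of the array's non-control probes was used, outlier spots (1841) were dropped, and repeated spots were averaged. A RefSeq symbol was found for 58.3% of probes. Array number, 3 mice a group, limits precision.

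In each tissue, genes well above background on at least 3 of 6 arrays were tested with limma 3.58.1 (R 4.3.3) and Benjamini-Hochberg adjustment at 0.05. Young tissue pairs and differences of age change came from 1 fit of all 24 arrays. The genes, lists and tests were chosen with earlier results of these data known. The text names the 8 genes, Fgf15, Fgf23, Lctl and Fgfrl1, in each tissue and pathway list the called gene with the largest change in each direction, and 3 genes most like each member. The test was tested on simulated data. Replicate numbers did not pair samples of different ages. The 17 alternatives a tissue covered background correction, scaling, filter, probe choice, fit, replicate block, the methods' t-test and each mouse left out. Dropping young WAT mouse 1 or aged lung mouse 1 alone from the 24-array fit, and counting the lists under other scalings or without these mice, were chosen after seeing the data.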

Additional observations from a re-analysis of the deposited data

Results flagged for a closer look

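The age change of Fgfr1 differed between lung and liver by -1.65 and between WAT and liver by -1.33, and that of Fgfr3 differed between kidney and lung by -1.16, each by the test of the difference in a fit over all 24 arrays (adjusted p = 0.0121, 0.0338 and 0.0324). In these 3 results the age contrast of a member took another size or sign in 1 tissue than in another.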

How the results depend on the processing

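With 3 mice a group, each array carries much of a value. Over all single-member values, 423 kept direction and call under an alternative, 31 lost and 4 gained a call, and 16 changed sign, the last all for changes that had not passed. The cause of each shift was not tested.

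The member called higher in liver, Fgfr1, fell to 0 calls with no filter on dim probes, quantile normalization, the replicate block and the methods' t-test, and to between 0 and 1 when a mouse was left out. Lower calls in liver went from 0 to 1 with the mean of the gene's probes (Klb) and to 1 with no filter (Kl, on no liver array above background). The member called lower in lung, Fgfr2, fell to 0 with spike-in scaling, the mean of probes, no filter, 1 fit of all 24 arrays, the replicate block and the t-test, and to between 0 and 1 with a mouse left out. In kidney the 5 lower calls became 3 with spike-in scaling and 1 in the 24-array fit (besides, Fgfr2 missed with the mean of probes, adjusted p = 0.110, and Fgfr4 with quantile normalization, 0.0520), and the 1 higher call became 0 with the mean of probes, 2 with no filter (Fgf21, above background on 2 of 6 arrays), 0 in the 24-array fit and between 0 and 1 with a mouse left out. Klb in kidney, not called as reported, gained a call under 1 of its 16 alternatives (adjusted p = 0.0259). The 24-array fit called 2 members lower in WAT, where it called 19.8% of all genes in either direction. The 3 differences of age change between tissues ranged from 0 to 3 with 1 replicate number left out in every tissue, being 0 without aged replicate 2 and 1 without young or aged replicate 3. They were 4 without young WAT mouse 1 alone, which was added after seeing the data, when the young tissue calls went from 33 to 34, and 3 and 33 without aged lung mouse 1 alone.

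Signs turned for Fgf1 in liver (-0.23 with the mean of probes, and between -0.040 and 0.31 with a mouse left out), Fgfr3 in liver (0.046 with the replicate block, and -0.43 to 0.048), Fgf21 in liver (-0.069 to 1.09), Fgfr3 in lung (-0.069 to 0.40), Fgfr4 in lung (-0.55 to 0.030), Klb in kidney (0.035 with spike-in scaling, and -0.71 to 0.033), Fgf21 in WAT (-0.040 to 1.13), Fgfr1 in WAT (0.044 with centring on the array median, and -0.39 to 0.17) and Fgfr2 in WAT (-0.48 to 0.14), the ranges being those with a mouse left out.

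Replicate numbers did not pair the ages, with correlations of same-numbered deviations from -0.16 to 0.18. The replicate block left 31 young tissue calls, 3 differences of age change and, in kidney, 5 lower and 1 higher calls, and gave Fgfr1 in liver a change of 1.66 (adjusted p = 0.0647). Over all genes the block called 6.09% in liver, 0.0033% in lung, 60.7% in kidney and 1.22% in WAT. Other settings that moved these shares by over 1.5 times were spike-in scaling (12.6% in liver, 3.53% in lung), the t-test (11.1% in liver, 0.696% in lung, 0.00333% in WAT), no filter (0.951% in lung, 1.06% in WAT), the filter on all 6 arrays (1.45% in WAT), the 24-array fit (2.85% in lung, 41.8% in kidney, 19.8% in WAT), and a mouse left out (8.92% to 25.5% in liver, 0.0066% to 6.08% in lung, 0.802% to 1.97% in WAT). The higher and lower calls in liver were 3051 and 3208 with centring on the median and 2558 and 6455 with normexp, and those in lung went from 819 and 868 to 798 and 561 with normexp.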

Other observations

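The klotho homologue Lctl and the decoy receptor Fgfrl1 were both highest in WAT among the young tissues. Lctl read 1.17 ± 0.54 there (SD, n = 3) and was 3.95-fold above kidney (adjusted p = 0.00236), and Fgfrl1 read 5.48 ± 0.41 and was 3.57-fold above liver (adjusted p = 4.88e-06). Without young WAT mouse 1 these differences were 2.28 and 2.06 on the log2 scale, and both still passed. Lctl passed as lower with age in kidney, liver and lung (not in liver with spike-in scaling or in lung without aged mouse 1), and in WAT its change of -0.43 had adjusted p = 0.802. The probe used for Fgf23 was well above background on all 24 arrays, at 4.21 ± 0.11 in young lung, 3.74 ± 0.35 in kidney, 3.10 ± 0.37 in WAT and 2.14 ± 0.09 in liver. Whether this signal comes from Fgf23 RNA alone was not tested. The age change of Fgf15 differed between WAT and liver by 1.21 (adjusted p = 0.0132, and 0.0252 without young WAT mouse 1).

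Vdr was well above background in no young and all aged livers and was at least 1.83-fold higher (adjusted p = 0.0104). Crisp1, the epididymal gene that was high in young WAT mouse 1, was well above background in no young and all aged kidneys. It was at least 12.4-fold higher (adjusted p = 2.81e-05), whereas Lcn5 and Lcn8 were well above background on no kidney array. Vdr in liver and Crisp1 in kidney passed the filter through aged arrays alone. Their adjusted p-values belong to the measured differences, not to the bounds.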
